A study of Mus musculus with 20 samples.

Results

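Krüppel-like factors are zinc finger transcription factors, and 7 of them were followed here together with 3 genes that endothelium uses to sense or answer flow, in dermal lymphatic endothelial cells (LECs) of mice at 4 times of day. The 10 genes are Klf2, Klf3, Klf4, Klf5, Klf6, Klf10, Klf13, Nos3, Thbd and Piezo1. They were chosen by symbol from the 24062 gene symbols that the libraries share, and all 10 were measured and passed the filter on low counts. Klf9, which also belongs to the circadian output programme of many tissues, was not among them and serves only for comparison.

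LECs were sorted as CD31+podoplanin+ cells from the ear skin of male wild type C57BL/6 mice (C57BL/6N in the study's methods) at postnatal day 56. No mutant allele, transgene or treatment was used, and the labels separate the groups by the hour of collection after lights on, zeitgeber time (ZT) 1, 7, 13 or 19. The libraries of the groups also differed in the share of reads on genes and in keratinocyte markers, as given below. Each group has 5 libraries, and each library is a pool of ears from a pair of mice, so every n below counts pools and the spread between libraries covers both animals and amplification. The question the design asks of these genes is whether their RNA in LECs differs by time of day.

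KLF2 and KLF4 are the classical shear stress factors of endothelium: laminar flow activates the MEK5-ERK5 kinases, these act on MEF2 proteins, and MEF2 switches on both genes. KLF2 and KLF4 in turn raise NOS3 (endothelial nitric oxide synthase) and thrombomodulin (Thbd) and lower inflammatory adhesion molecules. In lymphatic vessels, PIEZO1 is a mechanically gated cation channel needed for valve formation, and oscillating lymph flow acts at valve sites. The other family members have different leanings: KLF3 is mostly a repressor, KLF5 is known for growth of epithelium including basal epidermis, KLF6 and KLF10 are induced early after injury or TGF-beta, and KLF13 acts in lymphocytes and heart.

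The region just before the start of transcription is shown for 3 of the factors, because they hold the MEF2-type and E-box matches found in the windows at hand. The sequences are the 250 bases before the RefSeq start in GRCm38.p6, the assembly behind mm10, and such windows were at hand for 6 of the 10 genes (Klf2, Klf3, Klf4, Klf6, Klf13 and Piezo1). Capitals mark the match to CTANNNNTAG, a MEF2-type site, in Klf2 at chr8:72318812-72319061 on the plus strand. They mark CACGTG, the canonical E-box that the CLOCK-BMAL1 dimer binds, in Klf4 at chr4:55532476-55532725 on the minus strand and in Klf6 at chr13:5861239-5861488 on the plus strand.
Klf2: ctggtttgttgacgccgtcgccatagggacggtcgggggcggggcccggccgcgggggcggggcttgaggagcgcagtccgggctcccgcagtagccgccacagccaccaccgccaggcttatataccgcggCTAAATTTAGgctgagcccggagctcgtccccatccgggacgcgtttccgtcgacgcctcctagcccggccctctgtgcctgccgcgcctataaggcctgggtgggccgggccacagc
Klf4: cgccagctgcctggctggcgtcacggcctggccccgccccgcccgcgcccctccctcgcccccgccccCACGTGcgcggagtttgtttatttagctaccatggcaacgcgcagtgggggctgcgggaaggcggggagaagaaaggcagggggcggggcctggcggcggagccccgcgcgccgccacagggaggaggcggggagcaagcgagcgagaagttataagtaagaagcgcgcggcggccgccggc
Klf6: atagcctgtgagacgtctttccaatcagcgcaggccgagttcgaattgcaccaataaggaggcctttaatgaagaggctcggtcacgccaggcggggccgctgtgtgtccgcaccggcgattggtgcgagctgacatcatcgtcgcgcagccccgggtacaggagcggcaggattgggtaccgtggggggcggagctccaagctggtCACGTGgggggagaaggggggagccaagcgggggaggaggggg
The MEF2-type match of Klf2 begins 118 bases before the start, the E-box of Klf4 182 bases and that of Klf6 43 bases before it. Among all 32851 windows of this length, 3.2% hold CTANNNNTAG and 6.02% hold CACGTG on either strand. Of the 6 windows, that of Klf2 alone held CTANNNNTAG, so that of Klf4 did not, and CACGTG was in those of Klf4 and Klf6 and not in those of Klf2, Klf3, Klf13 and Piezo1. CACCC, the core that Krüppel-like factors bind, was found in 52% of windows. It occurred 5 times in the window of Klf3, once each in those of Klf2, Klf13 and Piezo1, and not in those of Klf4 and Klf6. AGGTCA, the core element of nuclear receptors, occurs in 14% of windows and had no match in the 6. The gene positions below are those of GENCODE M21, whose genes can begin further upstream, so that the last 29 bases of the Klf2 window, 7 of the Klf6 window and 133 of the Klf3 window lie inside the gene as GENCODE draws it. The marked matches lie outside it, whereas the CACCC of Klf2 and 3 of the 5 of Klf3 lie inside. None of the marked matches overlaps another of these motifs, and a match describes letters only.

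Between 4475111 and 42002363 reads per library were counted on genes (median 9379794), and no pair of the 20 libraries was identical. The share of reads that fell on a gene, of those that fell on a gene or on none, ranged between 20.2% and 29.5% in ZT1 libraries, 12.7% and 62.3% in ZT7, 20.1% and 79.9% in ZT13, and 35.0% and 81.6% in ZT19. The libraries that stand at the top of this range are ZT13 replicate 5 and ZT19 replicate 1, and edgeR's calls for the 10 genes and the gene lists were also made without them, whereas the DESeq2 and marker calls were not. Of 9 lymphatic markers, 8 were present in every library, Prox1, Lyve1 and Flt4 among them, while Ccl21a was listed at 0 in all 20. Their summed normalized count ran from 45685 to 113703, and 0 of the 8 tested passed edgeR's adjusted threshold among the time points, the smallest p being that of Cdh5 (adjusted p = 0.244), with means of 3980 ± 1031 at ZT1 and 1534 ± 1242 at ZT19 (SD, n = 5). Keratinocyte markers were present too. The sum of all 14 was from 11642 to 33449 at ZT13, below every library of ZT1 (37468 to 75983), ZT7 (67331 to 187574) and ZT19 (97101 to 198837), no marker of the 14 was at 0 in every library, and 6 of them, Krt5, Krt14, Krt15, Perp, Sfn and Col17a1, differed among the time points. The 8 blood endothelial markers summed to between 7064 and 15810 at ZT13 and 5349 and 10414 at the other time points, with 0 of 8 called, and the 6 leukocyte markers to between 0 and 577. The 8 fibroblast markers, of which Ccdc80 was called, summed to between 6216 and 18368 in ZT1 libraries and 932 and 4415 in ZT7, without overlap, and to between 734 and 12955 in the others. The 5 mural cell markers, with 0 called, summed to between 204 and 1839. The part of blood endothelial, leukocyte, fibroblast and mural cell RNA in the results was not tested.

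Levels between genes are compared per kilobase of exon, as normalized counts (reads scaled to a common effective library size) divided by the summed exon length. On this scale Klf2 had the highest median over the 20 libraries, 1896 per kilobase. Klf6 followed at 1135, Klf4 at 1127 and Klf10 at 946. A step then led to Klf13 (308), Thbd (255), Nos3 (196), Klf3 (130), Piezo1 (128) and Klf5 (105). Only the step from Klf10 to Klf13 held in all 20 libraries. Klf2 exceeded Klf6 in 17 of them, with a mean difference of 0.61 ± 0.74 (SD, log2, n = 20), whereas Klf6 exceeded Klf4 in 11 and Klf4 exceeded Klf10 in 9, so these 3 cannot be ranked beyond their spread. The same holds from Klf13 downwards, where the gene with the higher median was higher in between 9 and 14 of 20 libraries.

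**Figure D1:**
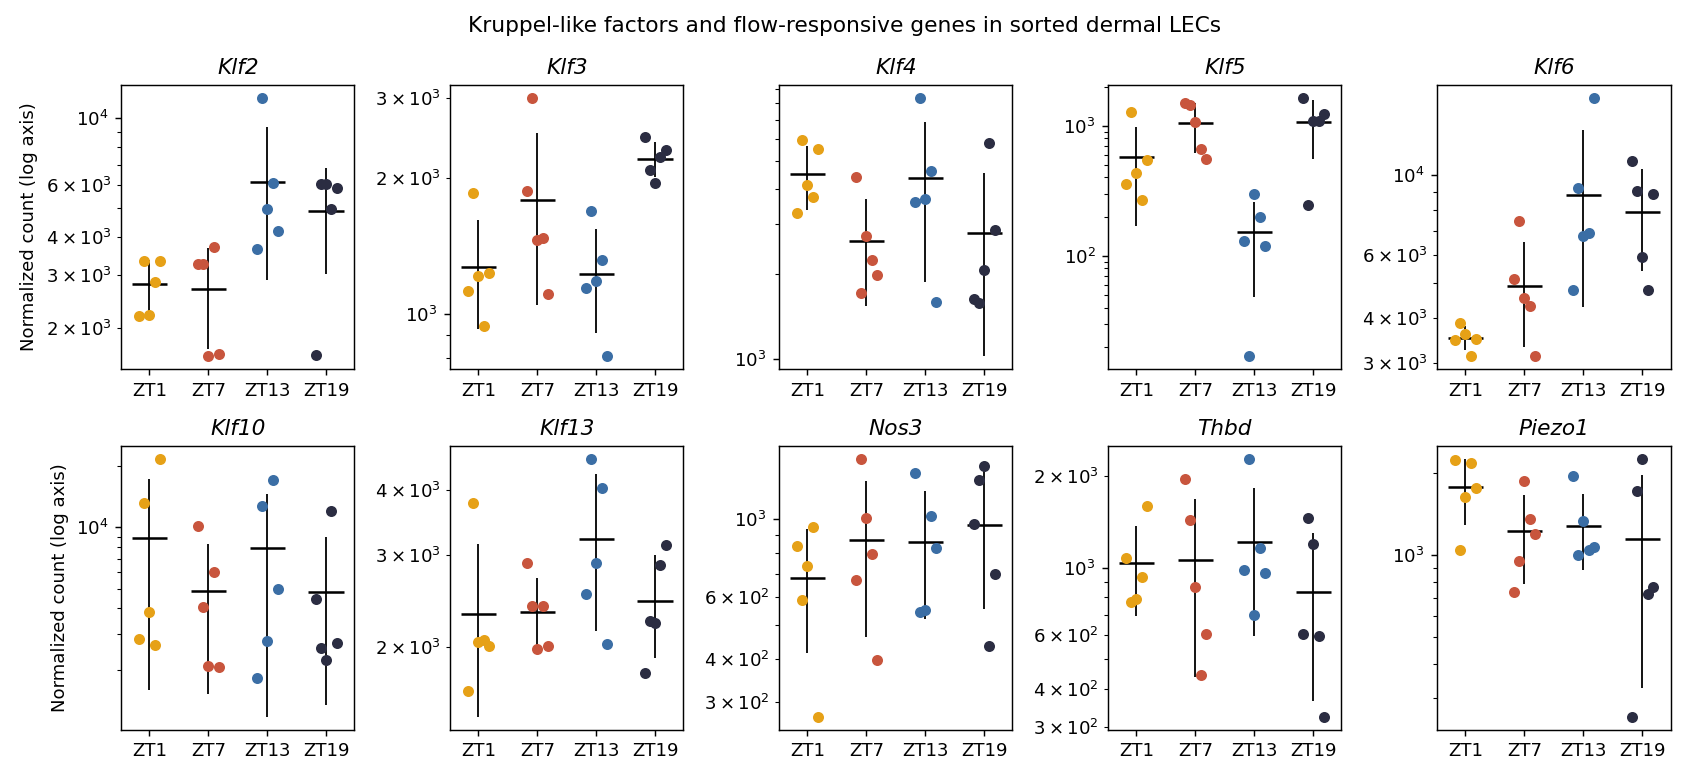
Normalized counts of the 10 genes (log axis) by time of day, 1 point per library, with the mean (horizontal bar) and SD (vertical line) of 5 libraries. Klf2 and Klf6 at ZT13 lie above every ZT1 library, Klf3 is tight and high at ZT19, and Klf5 at ZT13 lies between 17.0 and 301.

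The 10 genes were tested among the 4 time points with edgeR's quasi-likelihood F-test and Benjamini-Hochberg adjustment over all 19209 genes tested. Klf5 alone passed an adjusted p of 0.05, that is 1 of 10, beside 0.422% of all genes. At an unadjusted p under 0.05 there were 4 of 10 (Klf2, Klf3, Klf5 and Klf6), beside 15.7% of all genes. DESeq2 called 3 of 10 (Klf2, Klf5 and Klf6), beside 3.54% of the 16937 genes to which it gave an adjusted p. For the 6 genes that reached none of these thresholds edgeR's adjusted p ran from 0.477 (Klf4) to 0.855 (Thbd).

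Klf5, whose protein drives growth programmes in epithelia, had the widest range of all 10, 96.5-fold between its highest and lowest library. The gene lies at chr14:99298691-99315036 on the plus strand of GRCm38. Its normalized counts in replicates 1 to 5 were 356, 1285, 435, 269 and 544 at ZT1. They were 1507, 1450, 1073, 667 and 552 at ZT7. At ZT13 they were 131, 17.0, 301, 198 and 120, the lowest of these resting on 16 reads, and at ZT19 they were 1637, 244, 1086, 1096 and 1230. All 5 libraries of ZT13 thus lie below all 5 of ZT7, a pattern without overlap that 0.75% of genes showed in that direction. ZT13 overlaps ZT1 only through replicate 4 of ZT1, and ZT19 only through replicate 2 of ZT19. In the order ZT1, ZT7, ZT13 and ZT19 the means were 578 ± 408, 1050 ± 437, 154 ± 105 and 1059 ± 507 (SD, n = 5 pools each).

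Among the 4 time points Klf5 had an edgeR adjusted p of 0.0476. It was 6.88-fold lower at ZT13 than at ZT7, a log2 difference of -2.78 with an SE of 0.56 and a 95% interval from -3.93 to -1.63 (adjusted p = 0.0365), in a comparison where 1 of 10 genes and 0.0937% of all genes passed (18 genes, 2 without ZT7 replicate 2, 3 without ZT13 replicate 2 or 4, 4 without ZT13 replicate 5, 11 without ZT7 replicate 3, 36 without ZT13 replicate 3, and from 12 to 24 without any other single library). Its ZT19 level exceeded that of ZT13 6.93-fold, a log2 difference of 2.79 with an SE of 0.56 (adjusted p = 0.0148), where 0.588% of all genes passed (113 genes, 853 without ZT13 replicate 5, and from 63 to 141 without any other single library). The difference of -1.92 between ZT13 and ZT1 did not pass (adjusted p = 0.479), and between ZT19 and ZT7 the difference was 0.01 with an interval from -1.06 to 1.08. The call among the 4 time points held when ZT1 replicate 2, ZT7 replicate 5, ZT13 replicate 3, ZT19 replicate 2 or ZT19 replicate 4 was left out and was lost without any of the other 15 libraries (edgeR's adjusted p from 0.0202 to 0.107). That between ZT13 and ZT7 was lost without ZT7 replicate 1, 2 or 3, ZT13 replicate 1, 2, 4 or 5, or ZT19 replicate 3 or 5 (0.0178 to 0.136), and without both ZT13 replicate 5 and ZT19 replicate 1 the adjusted p was 0.109 among the time points, 0.134 for ZT13 against ZT7 and 0.0531 for ZT19 against ZT13. With the replicate number as a block these were 0.137, 0.126 and 0.0403. In edgeR fits of only the 2 time points compared, the adjusted p was 0.104 for ZT13 against ZT7 and 0.0752 for ZT19 against ZT13.

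The level of Klf5 moved with the keratinocyte markers. Over the 20 libraries, Pearson's r between log2 Klf5 and the keratinocyte score (the mean centred log2 level of the 14 markers) was 0.892 and Spearman's rho 0.854, each with a permutation p of 1e-05, the smallest that 100000 permutations can give, and an adjusted p of 3e-04 over 30 relations. Within time points r was 0.70, and over the libraries it was 0.866 without ZT13 replicates 5 and 2, the libraries farthest from the median score. The permutations here and below shuffled all 20 libraries regardless of time point, so their p-values also take in differences between time points. The r within time points was not tested. With the score as a covariate, edgeR's log2 difference between ZT13 and ZT7 moved from -2.78 to -0.84 (adjusted p = 0.999), that between ZT19 and ZT13 from 2.79 to 0.77 (adjusted p = 0.651), and no gene of the 10 passed among the 4 time points. In bulk RNA of sorted cells, fewer cells of a type and less RNA per cell cannot be told apart, and with the score differing by time point neither can score and time. Genes whose levels were most like that of Klf5 over the 20 libraries, among 12563 genes with a mean normalized count of at least 50, included Dmkn, a secreted protein of the epidermis (r = 0.935), and Guca2a (r = 0.914).

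**Figure D2:**
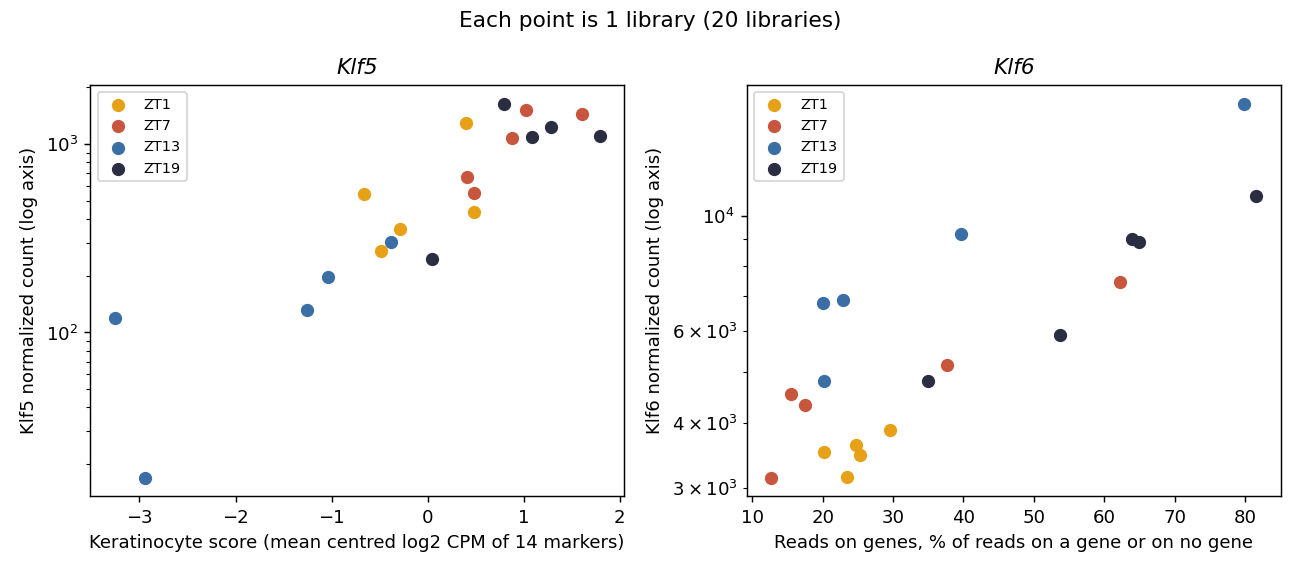
Each point is 1 of 20 libraries, coloured by time point: the normalized count of Klf5 (log axis) against the keratinocyte score on the left, and that of Klf6 (log axis) against the share of reads on genes in percent on the right. Klf5 climbs with the score (r = 0.892) and Klf6 with the share of reads on genes (r = 0.825 on the log odds scale).

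Klf2, the flow-induced factor that keeps endothelium quiescent, had its highest means at ZT13 and ZT19, but no difference passed edgeR's adjusted threshold. It is a compact gene at chr8:72319033-72321656 on the plus strand. Replicates 1 to 5 had normalized counts of 2193, 3345, 2204, 2840 and 3348 at ZT1, and 3253, 3260, 1608, 3722 and 1628 at ZT7. At ZT13 they were 3656, 11697, 4981, 6064 and 4201, and at ZT19 they were 1626, 6052, 6023, 4986 and 5871. Every ZT13 library exceeded every ZT1 library, and 4 of 5 ZT19 libraries exceeded all of ZT1 and ZT7, while ZT19 replicate 1 was lower than all of ZT1. The means were 2786 ± 575, 2694 ± 1001, 6120 ± 3246 and 4912 ± 1888 at ZT1, ZT7, ZT13 and ZT19 (SD, n = 5).

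For Klf2 the test among the 4 time points gave an edgeR adjusted p of 0.221. ZT13 exceeded ZT1 2.20-fold, by 1.14 on the log2 scale (95% interval from 0.32 to 1.95, adjusted p = 0.643), and ZT7 2.27-fold, by 1.18 (0.37 to 1.99, adjusted p = 0.815). ZT19 exceeded ZT1 by 0.82 (0.01 to 1.62, adjusted p = 0.224). The fitted 24-h cosine of Klf2 peaked at 15.5 h with a log2 amplitude of 0.71 (adjusted p = 0.403). Under DESeq2, the tool that the authors used, the adjusted p of Klf2 was 0.0279 among the time points and 0.0439 for the rhythm, so its call depends on the tool. Without ZT13 replicate 2, which holds the highest value, the difference between ZT13 and ZT1 was 0.75, and without ZT19 replicate 1 the adjusted p among the time points was 0.184. With the keratinocyte score as a covariate, ZT13 exceeded ZT1 by 0.88 and ZT7 by 0.78. ZT13 replicate 2 also had the highest sum of blood endothelial markers (15810), and the part of such RNA in the level of Klf2 was not tested.

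The genes with the profile most like that of Klf2 were Nfkbia, the inhibitor of NF-kappaB (r = 0.848 over 20 libraries, 0.815 within time points), Rpusd4 (0.816 and 0.810) and Ramp2, the adrenomedullin co-receptor of endothelium (0.800 and 0.898). Klf2 also tracked the mean level of immediate early genes in rank (rho = 0.651, permutation p = 0.00236, adjusted p = 0.0177), less so on the linear scale (r = 0.525, permutation p = 0.0177, adjusted p = 0.106). Within time points that r was 0.208, and it was 0.632 without ZT7 replicates 2 and 1.

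Klf4, the partner of Klf2 in the flow response, had its highest means at ZT1 and ZT13 and passed no test. The gene lies at chr4:55527143-55532466 on the minus strand. Over replicates 1 to 5, normalized counts were 3278, 5928, 4102, 3742 and 5527 at ZT1 and 4402, 1713, 2721, 2235 and 1982 at ZT7. They were 3595, 8351, 3673, 4626 and 1588 at ZT13 and 1630, 1586, 2069, 5799 and 2848 at ZT19. Every pair of time points overlapped. Means were 4515 ± 1153, 2611 ± 1068, 4367 ± 2487 and 2786 ± 1759 (SD, n = 5), and the test among the 4 gave an edgeR adjusted p of 0.477. The largest difference of Klf4 was -0.79 on the log2 scale, between ZT7 and ZT1 (95% interval from -1.65 to 0.07, adjusted p = 0.999). ZT13 exceeded ZT7 by 0.74 (-0.12 to 1.6), and ZT19 differed from ZT1 by -0.70 (-1.55 to 0.16). Between ZT13 and ZT1 the difference was -0.05 with an interval from -0.90 to 0.80. The amplitude of its 24-h cosine was 0.05 (adjusted p = 0.992). Over the 20 libraries r between Klf2 and Klf4 was 0.328. The closest profiles to that of Klf4 were those of Capns1 (r = 0.955), Tnrc6b (0.951) and Wdr26 (0.943).

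Klf6, an early-response factor, also had its highest means at ZT13 and ZT19, and edgeR called no difference. It lies at chr13:5861482-5870394 on the plus strand. For replicates 1 to 5 its normalized counts were 3473, 3882, 3625, 3143 and 3510 at ZT1, a narrow band, and 5158, 7451, 4553, 4328 and 3140 at ZT7. They were 4807, 9229, 6793, 6886 and 16407 at ZT13 and 10925, 9015, 5903, 4806 and 8883 at ZT19. All libraries of ZT13 and all of ZT19 exceeded all of ZT1. Klf2 and Klf6 were the 2 of 10 genes higher without overlap at ZT13 than at ZT1, beside 0.489% of all genes, and Klf3 and Klf6 the 2 of 10 higher without overlap at ZT19 than at ZT1, beside 2.38%.

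The means of Klf6 were 3527 ± 268, 4926 ± 1590, 8824 ± 4519 and 7906 ± 2496 at ZT1, ZT7, ZT13 and ZT19 (SD, n = 5), with an edgeR adjusted p of 0.171 among them. ZT13 exceeded ZT1 by 1.32 on the log2 scale (95% interval from 0.57 to 2.07, adjusted p = 0.471). ZT19 exceeded ZT1 2.24-fold, by 1.16 (0.42 to 1.91, adjusted p = 0.0936), a difference that passed only without ZT19 replicate 4 (adjusted p = 0.0475). Its 24-h cosine peaked at 14.8 h with a log2 amplitude of 0.74 (adjusted p = 0.327). DESeq2 called Klf6 among the time points (adjusted p = 0.00478), for the rhythm (0.00600) and at ZT13 and ZT19 against ZT1 (0.00251 and 0.00939).

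Klf6 moved with the share of reads on genes, which also differed by time point. Over the 20 libraries r with the log2 odds that a read fell on a gene was 0.825 (permutation p = 2e-05, adjusted p = 3e-04), and rho was 0.722 (permutation p = 0.00047, adjusted p = 0.00705). Within time points r was 0.932, and without ZT19 replicate 1 and ZT13 replicate 5 it was 0.71. With these odds as a covariate, the log2 difference of Klf6 between ZT19 and ZT1 was 0.33 in place of 1.16, and that between ZT13 and ZT1 was 0.94 in place of 1.32. With the keratinocyte score as a covariate they were 1.42 and 0.82. Against the immediate early gene score Klf6 had r = -0.753 within time points but -0.00191 over all libraries (permutation p = 0.993). The most similar profiles were those of Herpud1, an unfolded protein response gene (r = 0.940), Cnn3 (0.928) and Dusp1, an immediate early phosphatase (0.927).

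Klf3, a repressor of the family, had its highest mean at ZT19, where its libraries lay close together, and edgeR called no difference. The gene lies at chr5:64803388-64832901 on the plus strand. Replicates 1 to 5 held 1123, 1852, 1215, 942 and 1233 normalized counts at ZT1 and 1874, 3000, 1456, 1470 and 1109 at ZT7. They were 1141, 1688, 1182, 1314 and 809 at ZT13 and 2454, 2079, 1946, 2221 and 2306 at ZT19. All ZT19 libraries exceeded all of ZT1 and all of ZT13, and only Klf3 of the 10 was higher without overlap at ZT19 than at ZT13, beside 1.87% of all genes.

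The means of Klf3 were 1273 ± 343, 1782 ± 733, 1227 ± 318 and 2201 ± 197 (SD, n = 5), with an edgeR adjusted p of 0.262 among the time points. ZT19 exceeded ZT1 1.73-fold, by 0.79 on the log2 scale (95% interval from 0.17 to 1.41, adjusted p = 0.134), and ZT13 1.79-fold, by 0.84 (0.22 to 1.47, adjusted p = 0.126). DESeq2 called the first of these (adjusted p = 0.0383) and not the second (0.0569). Klf3 was correlated with the keratinocyte score over the libraries (r = 0.640, permutation p = 0.00181, adjusted p = 0.0181, and rho = 0.683, permutation p = 0.00105, adjusted p = 0.0105). Within time points r was 0.369, and it was 0.755 without ZT13 replicates 5 and 2. With this score as a covariate, the difference between ZT19 and ZT13 was 0.37 (adjusted p = 0.765). With the odds of a read on a gene Klf3 had r = 0.474 (permutation p = 0.0349, adjusted p = 0.131) and rho = 0.547 (permutation p = 0.0139, adjusted p = 0.0695), with r = 0.275 within time points and 0.821 without ZT19 replicate 1 and ZT13 replicate 5. The closest profiles were those of Fam210b (r = 0.823), Ackr4, the scavenger receptor that clears CCL19 and CCL21 (0.812), and Gpc3 (0.802).

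Klf10, a TGF-beta-inducible factor, varied more within time points than between them. The gene lies at chr15:38291463-38300706 on the minus strand. Its normalized counts in replicates 1 to 5 were 2837, 13073, 3825, 2657 and 21702 at ZT1, an 8.17-fold range. In ZT7 the range was 4.88-fold, in ZT13 9.35-fold and in ZT19 5.35-fold. ZT7 ran from 2073 to 10114 with a median of 4085, ZT13 from 1828 to 17101 with a median of 4995, and ZT19 from 2245 to 12024 with a median of 2710. The SD within time points was 1.20 on the log2 scale, and the means spanned 0.66 (edgeR's adjusted p = 0.725). Malat1, an abundant nuclear RNA, had the profile most like it (r = 0.920, 0.922 within time points), followed by Mill2 (0.918) and Snrnp27 (0.915).

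Klf13 was the steadiest of the 10 genes, with 2.80-fold between its highest and lowest library. It lies at chr7:63886351-63938915 on the minus strand. Normalized counts ran from 1646 to 3780 in ZT1 libraries, 1978 to 2903 in ZT7, 2022 to 4604 in ZT13 and 1781 to 3137 in ZT19, with means of 2307 ± 841, 2336 ± 377, 3218 ± 1073 and 2451 ± 547 (SD, n = 5). All pairs of time points overlapped and the test among them gave an edgeR adjusted p of 0.695. The difference between ZT13 and ZT1 was 0.48 with an interval from -0.16 to 1.12, and it ran from 0.31 without ZT13 replicate 2 to 0.72 without ZT1 replicate 2. Apold1, an endothelial early-response gene, had the profile most like it (r = 0.848).

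**Figure D3:**
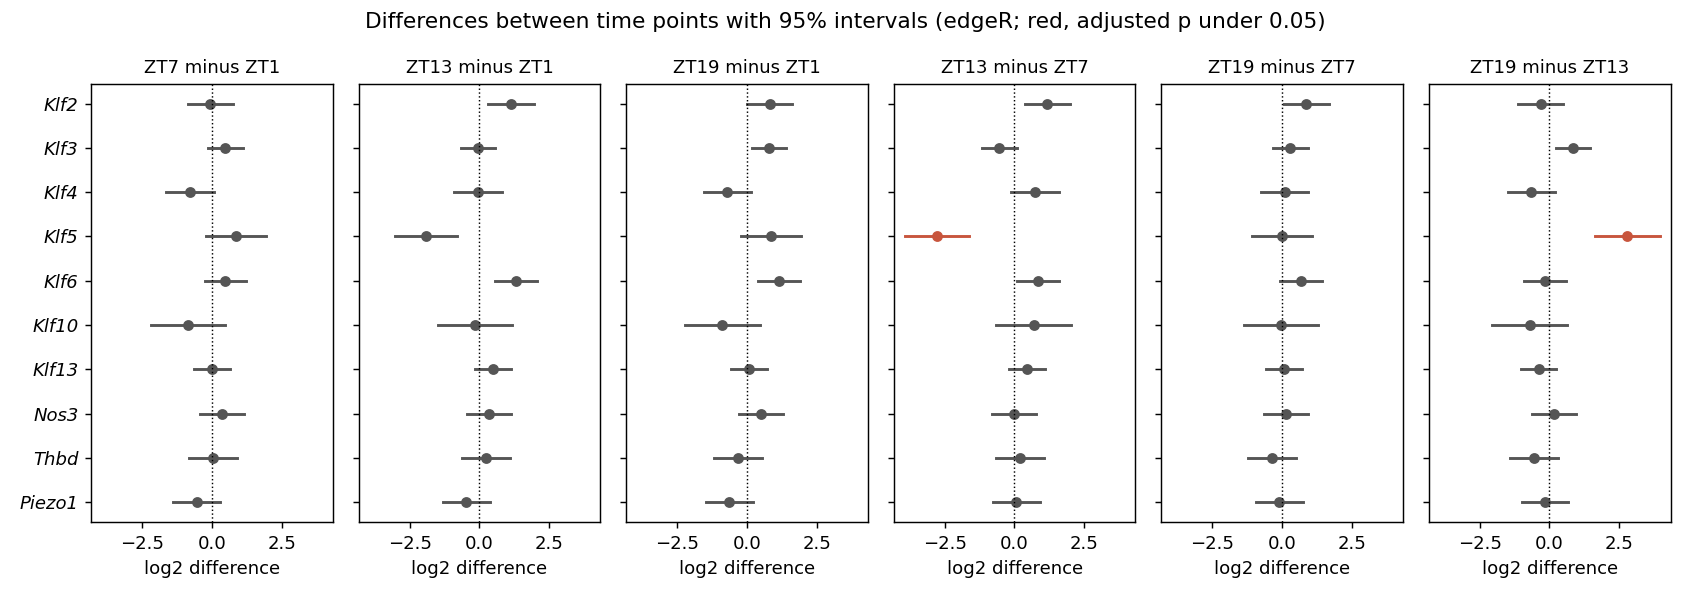
Log2 differences of the 10 genes for all 6 pairs of time points, with 95% intervals from edgeR's quasi-likelihood fit over 20 libraries and the adjusted threshold marked in red. Klf5 at ZT13 against ZT7 (-2.78) and at ZT19 against ZT13 (2.79) are the differences that passed.

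No difference passed for the 3 genes that sense or answer flow. Nos3, the endothelial nitric oxide synthase at chr5:24364810-24384474 (plus strand), had means of 678 ± 263, 873 ± 411, 861 ± 343 and 965 ± 410 at ZT1, ZT7, ZT13 and ZT19 (SD, n = 5). Its values in replicates 1 to 5 were 840, 589, 735, 953 and 273 at ZT1 and 1357, 544, 551, 1022 and 828 at ZT13, the pair of time points between which Klf2 did not overlap. At ZT7 and ZT19 its libraries ran from 396 to 1492 and from 436 to 1424. The ZT1 and ZT13 values of Nos3 did overlap, and the difference was 0.34 on the log2 scale with a 95% interval from -0.46 to 1.14 (edgeR's adjusted p = 0.9998). Among the 4 time points edgeR's adjusted p was 0.846. Over the 20 libraries r between Nos3 and Klf2 was 0.0221.

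Thbd encodes thrombomodulin, the anticoagulant receptor for thrombin, at chr2:148404466-148408188 on the minus strand. In replicates 1 to 5 its normalized counts were 1077, 772, 789, 936 and 1600 at ZT1 and 981, 2287, 702, 1160 and 960 at ZT13. At ZT7 they were 1958, 1433, 867, 446 and 607, and at ZT19 608, 1454, 1197, 595 and 324. The means were 1035 ± 339, 1062 ± 625, 1218 ± 619 and 836 ± 471 (SD, n = 5), all pairs of time points overlapped, and edgeR's adjusted p among the 4 was 0.855. Between ZT13 and ZT1 the difference was 0.24 on the log2 scale with an interval from -0.63 to 1.10. The r between Thbd and Klf2 was 0.281.

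Piezo1, the mechanically gated channel at chr8:122481698-122551329 on the minus strand, had its highest mean at ZT1. Its normalized counts in replicates 1 to 5 were 2242, 1043, 1641, 2184 and 1767 at ZT1 and 256, 1719, 2259, 721 and 767 at ZT19, so that ZT19 held both the lowest and the highest of the 20 values. ZT7 ran from 731 to 1877 and ZT13 from 998 to 1949, within that range. The means were 1775 ± 484, 1222 ± 436, 1280 ± 396 and 1144 ± 819 (SD, n = 5), with an edgeR adjusted p of 0.723 among them. ZT19 differed from ZT1 by -0.63 on the log2 scale (95% interval from -1.48 to 0.21, edgeR's adjusted p = 0.371). With the odds of a read on a gene as a covariate this difference was -0.16. Against these odds Piezo1 had r = -0.538 (permutation p = 0.0128, adjusted p = 0.0958), with -0.429 within time points and -0.307 without ZT19 replicate 1 and ZT13 replicate 5. The autophagy kinase gene Ulk1 had the profile most like it (r = 0.939), and r between Piezo1 and Klf2 was 0.0351.

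No gene of the 10 passed for a 24-h rhythm in edgeR, beside 0.0312% of all genes, with 2 (Klf2 and Klf6) at an unadjusted p under 0.05 beside 9.23% of all genes. DESeq2 called these 2 genes, beside 0.595% of the 12446 genes to which it gave an adjusted p. Between ZT7 and ZT1, ZT13 and ZT1, ZT19 and ZT1, and ZT19 and ZT7, edgeR called 0 of the 10, beside 0.00521%, 0.0208%, 0.0156% and 0.0156% of all genes. The 3 genes behind the share between ZT19 and ZT1 became 902 without ZT19 replicate 4, 191 without ZT13 replicate 5 and from 0 to 3 without any other single library. At an unadjusted p under 0.05, 0 of the 10 differed between ZT7 and ZT1 (4.97% of all genes), 3 between ZT13 and ZT1 (Klf2, Klf5 and Klf6, beside 5.37%), 3 between ZT19 and ZT1 (Klf2, Klf3 and Klf6, beside 21.6%) and 1 between ZT19 and ZT7 (Klf2, beside 19.7%). The same count was 3 between ZT13 and ZT7 (Klf2, Klf5 and Klf6, beside 2.59%) and 2 between ZT19 and ZT13 (Klf3 and Klf5, beside 19.2%). DESeq2 leaves some genes without an adjusted p, and how many differs between comparisons, so its shares have different bases. It called 0 of the 10 between ZT7 and ZT1 (beside 0.121% of 9890 genes) and between ZT19 and ZT7 (10.8% of 19171). It called Klf2 and Klf6 between ZT13 and ZT1 (0.82% of 9147), Klf3 and Klf6 between ZT19 and ZT1 (10.4% of 19171), and Klf5 both between ZT13 and ZT7 (0.63% of 12849) and between ZT19 and ZT13 (9.26% of 19171). As a description, the median log2 difference of the 10 genes was -0.24 between ZT19 and ZT13 and 0.30 between ZT19 and ZT1, where all genes had -0.22 and -0.39. Both comparisons moved with the setting. With the odds of a read on a gene as a covariate, the 10 genes had -0.33 and 0.19 and all genes 0.22 and 0.11, and with the keratinocyte score the 10 genes had 0.09 and 0.03 and all genes -0.61 and -0.62. The stricter filter on low counts gave all genes medians of 0.00 and -0.02.

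Several of the genes varied together from library to library. After the mean of each time point was taken off, Klf4 and Klf13 had r = 0.752 over the 20 libraries, Klf2 and Klf13 0.682, Klf3 and Klf13 0.636, Klf4 and Klf10 0.598 and Klf10 and Klf13 0.588. Klf9 joined this group, with 0.722 to Klf2 and 0.702 to Klf10. Klf5 and Klf6 did not, with values from -0.43 to 0.27 to every other of the 10 genes. Nos3 ran against Klf4 (-0.511) and Klf10 (-0.492), and Piezo1 against Klf10 (-0.514). All points of such a correlation share a library and its depth, and these values are descriptions.

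**Figure D4:**
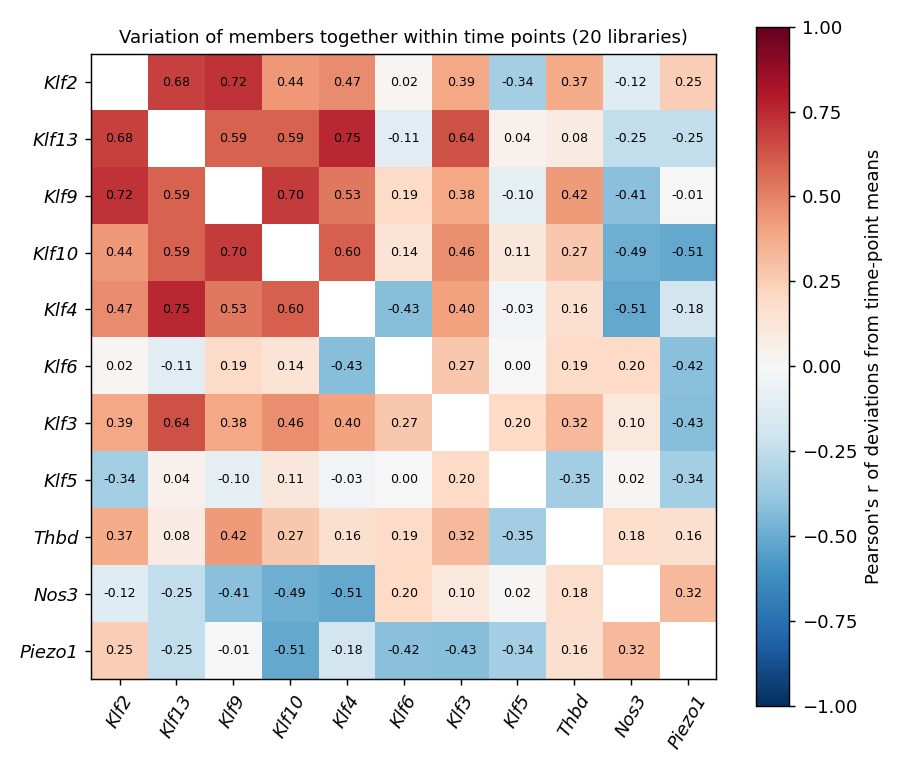
Pearson's r between the deviations of each gene's log2 normalized count from its time-point mean over 20 libraries, with Klf9 added to the 10 genes. Klf2, Klf13, Klf9, Klf10 and Klf4 form a block of positive values from 0.44 to 0.75, and Klf5 and Klf6 stand outside it.

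Klf9, a glucocorticoid and clock responsive factor, averaged 3325 ± 2209, 2347 ± 748, 4444 ± 1898 and 2770 ± 1085 (SD, n = 5), with an edgeR adjusted p of 0.521 among the 4 time points. The other 19 Krüppel-like and Sp factors, Klf9 among them, were all tested, and 0 of 19 passed edgeR's adjusted threshold among the time points, 2 at an unadjusted p under 0.05 and 1 under DESeq2, beside 0.422%, 15.7% and 3.54% of the genes tested by each. Klf15, a clock-driven regulator of amino acid and glucose metabolism named here after its values were seen, had the smallest p of this list (edgeR's adjusted p = 0.0909). It averaged 153 ± 49.4, 187 ± 44.5, 643 ± 545 and 332 ± 192 (SD, n = 5). Between ZT19 and ZT13, 18 of the 19 had a negative difference with a median of -0.83, and all genes tested had a median of -0.22. With the odds of a read on a gene as a covariate there were 12 of 19, with a median of -0.28, and the median of all genes was 0.22. The stricter filter on low counts left 10 of the list, all 10 negative, with a median of -0.52 beside 0.00 for all genes. Without the 2 libraries with the highest share of reads on genes there were 17 of 19, with a median of -0.56 beside -0.21.

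In the pathway that leads from flow to Klf2 and Klf4, 0 of 24 genes passed edgeR's adjusted threshold among the time points, 7 passed an unadjusted p of 0.05, and DESeq2 called 3, beside 0.422%, 15.7% and 3.54% of the genes tested by each. Map2k5, the gene of MEK5, had means of 472 ± 250, 416 ± 194, 435 ± 76.6 and 397 ± 161 at ZT1, ZT7, ZT13 and ZT19 (SD, n = 5), and Mapk7, the gene of ERK5, had 361 ± 144, 422 ± 161, 412 ± 190 and 422 ± 270 (edgeR's adjusted p = 0.981). Of the MEF2 genes, Mef2a averaged 1277 ± 132, 1375 ± 291, 1686 ± 626 and 1185 ± 463 and Mef2d 321 ± 128, 286 ± 119, 317 ± 200 and 416 ± 332. Mef2c, an endothelial flow effector, had 3138 ± 1638, 1415 ± 572, 1779 ± 1012 and 1289 ± 889, with an edgeR adjusted p of 0.267.

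Among 27 further flow-responsive endothelial genes tested, 1 passed, 5 had an unadjusted p under 0.05, and DESeq2 called 2, beside 0.422%, 15.7% and 3.54% of the genes tested by each. The gene that passed was Cyr61, a YAP target and matricellular protein, with means of 2016 ± 823, 1699 ± 402, 4707 ± 2786 and 4976 ± 1364 at ZT1, ZT7, ZT13 and ZT19 (SD, n = 5, edgeR's adjusted p = 0.0486). Among the fits with 1 library left out, its call held only without ZT1 replicate 2, ZT7 replicate 2, ZT13 replicate 1, 3 or 5, or ZT19 replicate 4 and was lost without any of the other 14. It was also lost with the replicate block, with either covariate (the keratinocyte score or the odds of a read on a gene) and without the 2 libraries with the highest share of reads on genes. Of 23 immediate early genes tested, Fos, Fosb and Zfp36 passed among the 4 time points, 10 had an unadjusted p under 0.05, and DESeq2 called 8, beside the same shares. The count of 3 was 0 with the keratinocyte score as a covariate, 1 with the replicate block or without the 2 libraries with the highest share of reads on genes, and from 0 (without ZT13 replicate 4) to 5 (without ZT7 replicate 2 or ZT19 replicate 4) with 1 library left out. Fos averaged 5074 ± 2099.7, 3220 ± 748, 12594 ± 3091 and 6394 ± 1625, Fosb 884 ± 227, 491 ± 241, 1678 ± 635 and 361 ± 95.4, and Zfp36 1200 ± 316, 1042 ± 221, 3178 ± 751 and 1649 ± 631. All 3 were highest at ZT13, where Klf2, Klf6, Klf13 and Thbd also had their highest means.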

How the data were processed

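RNA of sorted dermal LECs was amplified as full-length cDNA (SMART-Seq) and sequenced in single-end mode. Reads were mapped by the authors with STAR (mm10) and assigned to genes with HTSeq-count 1.0.0, and the deposited values are raw counts, 1 table of gene symbols per library. The strand setting and the annotation are not given in the sources used here, so reads of overlapping or antisense genes may be counted together. Of the reads in each table, between 47.5% and 96.7% (median 90.05%) were in 5 rows that name no gene, and these rows were left out of library sizes and tests.

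All 20 libraries entered 1 edgeR fit (version 4.0.16 in R 4.3.3), with TMM scaling, low genes removed by filterByExpr and quasi-likelihood F-tests. These were run over the 4 time points (3 df), over 6 pairs of them and over a 24-h cosine (2 df), and the threshold was 0.05 after Benjamini-Hochberg adjustment over 19209 genes. A normalized count is a count scaled by its library's TMM size, set against the geometric mean of the 20 sizes, and logs were taken after adding a pseudocount of 1. Exon lengths came from GENCODE M21 and promoter windows from RefSeq. The p-values of the fits set differences by time of day against the spread between pools. The genes, the lists and the tests were chosen with earlier results of these data known. All 10 genes were named, together with genes of the lists that passed a test, Klf9, Map2k5, Mapk7, Mef2a, Mef2c and Mef2d, and up to 3 genes most like each of the 10, some of which are not reported here. Alternatives were DESeq2 1.42.0, relative log expression (RLE) normalization, no filter and a stricter filter on low counts (50 counts in 5 libraries), the replicate number as a block, a covariate (the keratinocyte score, or the log2 odds that a read fell on a gene), fits of only the time points compared, each library left out in turn and, chosen after seeing the data, leaving out the 2 libraries with the highest share of reads on genes. The fits were also run on simulated counts, with changes planted in randomly drawn genes at ZT19 and no difference in cell make-up between libraries. The outcome is not reported here, and such counts cannot test the part of cell make-up.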

Additional observations from a re-analysis of the deposited data

Results flagged for a closer look

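In 3 of 40 groups of 5 libraries, where chance gives 2, the gap between 1 library and its nearest neighbour was over 0.71 of the whole range of the group. Klf2 in ZT19 replicate 1 was lower, with a gap of 0.853 of the range (1626 against 4986 to 6052). Klf5 in ZT19 replicate 2 was lower, with a gap of 0.784 (244 against 1086 to 1637). Klf13 in ZT1 replicate 2 was higher, with a gap of 0.729 (3780 against 1646 to 2063). ZT19 replicate 1 is the library with the highest share of reads on genes (81.6%), and ZT19 replicate 2 had the lowest summed keratinocyte marker count of ZT19 (97101), and their part in these values was not tested.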

How the results depend on the processing

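Of 277 values of single genes under alternatives, 254 kept their side of the threshold and, for log2 differences only, their direction. Direction was not compared for the adjusted p among the time points or of the rhythm. Most of the 254 belong to results that edgeR did not call with all 20 libraries and that stayed uncalled. Of the other 23, 1 changed direction: the log2 difference of Thbd between ZT19 and ZT13, -0.54, was 0.36 with the keratinocyte score as a covariate. Klf5 kept its direction in every fit of ZT13 against ZT7 and of ZT19 against ZT13, and its adjusted p among the 4 time points was 0.0295 without a filter, 0.057 with RLE normalization, 0.0589 with the stricter filter and 0.128 with the odds of a read on a gene as a covariate. The number of the 10 genes called among the time points, 1, was 3 with DESeq2, 0 with RLE normalization, the stricter filter, either covariate, the replicate block or without the 2 libraries with the highest share of reads on genes, and from 0 to 1 with each library left out. For the rhythm (0) and for ZT13 against ZT1 (0), DESeq2 called 2. For ZT19 against ZT1 (0) it called 2, and leaving out 1 library gave 0 to 1. For ZT13 against ZT7 (1), there were 0 with the block, either covariate, only those time points or without the 2 libraries, and 0 to 1 with 1 library left out. For ZT19 against ZT13 (1), there were 0 with either covariate, only those time points or without the 2 libraries. Of all genes, 81 were called among the time points, and this was 599 with DESeq2, 31 with the block, 2 with the keratinocyte score, 49 with the odds, and 30 to 178 with 1 library left out. For the rhythm, 6 genes were called, and this was 74 with DESeq2, 0 with the block, 2 with the keratinocyte score, 3 with the odds, 1 without the 2 libraries and 0 to 10 with 1 library left out. The lists moved as follows: other Krüppel-like and Sp factors (0) to 1 with DESeq2 and 0 to 1 with 1 library left out, the upstream pathway (0) to 3 and 0 to 3, the flow-responsive genes (1) to 2 and 0 to 1, with 0 under the block, either covariate or without the 2 libraries, and the immediate early genes (3) to 8 and 0 to 5, with 1 under the block, 0 with the keratinocyte score and 1 without the 2 libraries. The cause of these shifts was not tested.

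Replicates that share a number are pools of other mice, and their deviations had correlations that averaged from -0.06 to 0.08 over the pairs of time points, so the numbers were not used to pair samples. With the replicate block, the adjusted p of Klf5 was 0.137 for the 4 time points and 0.126 for ZT13 against ZT7. The median difference of all genes between ZT19 and ZT13 moved from -0.22 to 0.22 with the odds as a covariate, to -0.61 with the keratinocyte score and to -0.39 with RLE normalization, and differences against ZT19 are relative to that choice. The lowest count of the 10 genes was 16 reads, for Klf5 in ZT13 replicate 2, and what depth adds to the spread was not tested. The spread between 5 pools leaves wide intervals, for Klf10 between ZT13 and ZT1 from -1.50 to 1.17 on the log2 scale.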
